A study of Mus musculus with 49 samples.

Results

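The transcription factor Myc and 35 genes of ribosome assembly, 36 genes in all of 18194 measured genes, were followed in mouse liver after acetaminophen (APAP, paracetamol), a painkiller whose overdose kills the hepatocytes around the central vein of each lobule. The genes were chosen by name, from the factors that make, modify, cut and assemble ribosomal RNA, and every probe set annotated to 1 of them alone was used. The livers came from male C57BL6/N mice given 1 intraperitoneal injection of 300 mg/kg APAP in warm phosphate-buffered saline after an overnight fast, and from untreated controls. For the controls, fasting and a vehicle injection are not stated, and no genetic change is listed for any group. Affymetrix mouse genome arrays read total liver RNA. There were 5 arrays for untreated controls, 4 for livers taken at 6 h, and 5 for each of 1 h and 12 h, and of 1, 2, 4, 6, 8 and 16 d, which makes 49 arrays in 10 groups. The 16 d group is known from the sample labels alone. Arrays are numbered as replicates without a statement that each is a separate mouse, so p-values measure the spread between arrays, which may in part be technical.

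The deposited values covered all 45101 probe sets on 25 arrays (1 h and 12 h, and 1, 2 and 16 d) and 8137 or 8138 on the remaining 24, the controls among them. All 36 genes were therefore measured in 5 groups, through 76 probe sets, and 16 of the 36 in all 10 groups, through 24 probe sets. Myc has 1 probe set and no value on the control arrays. Neither 16 d nor 1 h is an untreated group, so both were used as references for the full set of 36. The 16 genes with control values had a median difference from control of -0.15 at 16 d and -0.11 at 1 h. Over all genes it was 0.00 at both times. A difference from either reference can therefore be larger than the one from control. Values are log2 expression, on a scale that reached 14.34 for the highest gene. A level is compared between groups for the same gene only, since different probe sets bind with different strength. The number of arrays limits the precision.

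Ribosome assembly begins in the nucleolus, where RNA polymerase I copies the ribosomal DNA. Small RNA-guided particles of the box C/D and box H/ACA classes then modify the transcript, and separate sets of factors cut it and build the small and the large subunit. Myc is an immediate early gene in the injured and regenerating liver, and as a partner of Max it binds E-box sequences near the start of many of these genes. Making ribosomes is a large cost of growth, and it precedes DNA synthesis when hepatocytes re-enter the cell cycle.

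Several arrays stood apart. The 16 d replicate 5 array read Myc at 10.75, above every 12 h array, and Myc ranked 8 among all genes in the gap between this array and the highest of the other 16 d arrays. The genes ahead of it were Cxcl10, Ier3, Tnfaip3, Egr2, Atf3, Gadd45a and Tiparp, which are early response and inflammatory genes. Control replicate 3, 1 h replicate 3 and 16 d replicate 4 had a narrower spread of values (SD over genes 2.23, 2.24 and 2.25) than the other 46 arrays. Of the 36 genes, 27 had their lowest 1 h value on replicate 3 and 29 their lowest 16 d value on replicate 4. The share of all genes lowest on these arrays was not counted. The share with their highest value of the group there was 32.4% on each. At 12 h, replicate 2 was the highest array for 28 of the 36 genes, against 19.3% of all genes. At 1 d, replicate 2 was the lowest array for 26 of the 36, and the share of all genes lowest there was not counted. Results that turn on any of these arrays are given with and without them.

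Against 16 d and 1 h, the counts and medians of the ribosome assembly genes were highest at 12 h. Against 16 d, limma called 25 of 36 genes higher at an adjusted p under 0.05 and none lower, where 8.60% of all genes were called higher and 10.6% lower. At an unadjusted p under 0.05, 30 were higher and 0 lower. The median difference of the 36 was 0.81 on the log2 scale, against -0.06 for all genes, 13 were at least 2-fold higher, and 35 lay above 0. In 22 of the 36, every 12 h array lay above every 16 d array, which held for 6.08% of all genes. Against 1 h, 28 of 36 were called higher at 12 h and none lower (8.29% and 10.3% of all genes), with a median of 0.75 (0.63 at 1 d). The comparisons against 16 d share the 16 d arrays, and those against 1 h the 1 h arrays, so counts within a family are not separate evidence.

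At 1 d, 20 of 36 genes were still called higher than at 16 d and none lower (11.3% and 10.4% of all genes), with a median of 0.52 and 11 at least 2-fold higher. Against 1 h the 1 d count was 27, with none lower (11.6% and 11.7% of all genes). At 2 d, 16 genes were called higher than at 16 d and none lower (12.7% and 8.54% of all genes), with a median of 0.43, and none reached 2-fold. Against 1 h the 2 d count was 19, with none lower (14.8% and 13.3% of all genes), or 12 without the 2 d replicate 5 array. Leaving out the arrays of narrow spread gave 25, 19 and 14 genes higher than 16 d at 12 h, 1 d and 2 d. Scaling each array to its cytosolic ribosomal protein genes moved the median of all genes by -0.23, -0.43 and -0.40 at these times. The scaling genes were themselves higher then. Their median level per array was 11.99 to 12.15 at 12 h, 12.17 to 12.33 at 1 d and 12.13 to 12.29 at 2 d. It was 11.69 to 11.95 at 16 d and 11.74 to 11.92 at 1 h. The scale subtracts this level, which lowers the difference of every gene from 16 d and 1 h. On that scale 23 members were higher and 1 lower at 12 h, and 13 higher and 4 lower at 1 d. At 2 d, 4 members were higher and 6 lower. Of all 18194 genes, 969, 764 and 1044 were called higher at these times, and 7241, 12203 and 11579 lower. Member medians were 0.59, 0.10 and 0.02, against medians of all genes of -0.29, -0.48 and -0.46. The 4 higher at 2 d were Ncl (0.52), Nhp2 (0.52), Nop56 (0.49) and Gar1 (0.43), named after their values were seen. The 2 d calls of Polr1e (0.32 on that scale), Ddx21 (0.26), Rrp12 (0.19), Noc2l (0.17), Nop2 (0.04) and Mybbp1a (0.02) against 16 d were lost. Against 1 h, the same scale gave 23 higher and 1 lower, 11 and 6, and 6 and 7. Of all genes it gave 976, 826 and 1274 higher and 8002, 12429 and 11826 lower.

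At 1 h none of the 36 was called higher or lower than at 16 d by limma (1.32% of all genes were called higher and 1.46% lower), and 2 were higher and 1 lower at an unadjusted p under 0.05. Between 12 h and 1 d none was called (1.77% of all genes were, in either direction), with 1 higher and 6 lower at 1 d at an unadjusted p under 0.05. From 1 d to 2 d, 5 genes were called lower and none higher (2.09% and 6.39% of all genes). They were Mybbp1a (-0.76), Ddx21 (-0.73), Gnl3 (-0.56), Rrp12 (-0.52) and Npm1 (-0.38), named here after their values were seen. Without one of 1 d replicates 1, 4 or 5 or 2 d replicates 1, 2, 3 or 4, this count was 2 or 3. A moderated F test over the 5 groups called 31 of 36, where 38.8% of all genes were called. The genes that did not pass were Polr1a, Polr1b, Polr1c, Nop10 and Noc3l.

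**Figure D1:**
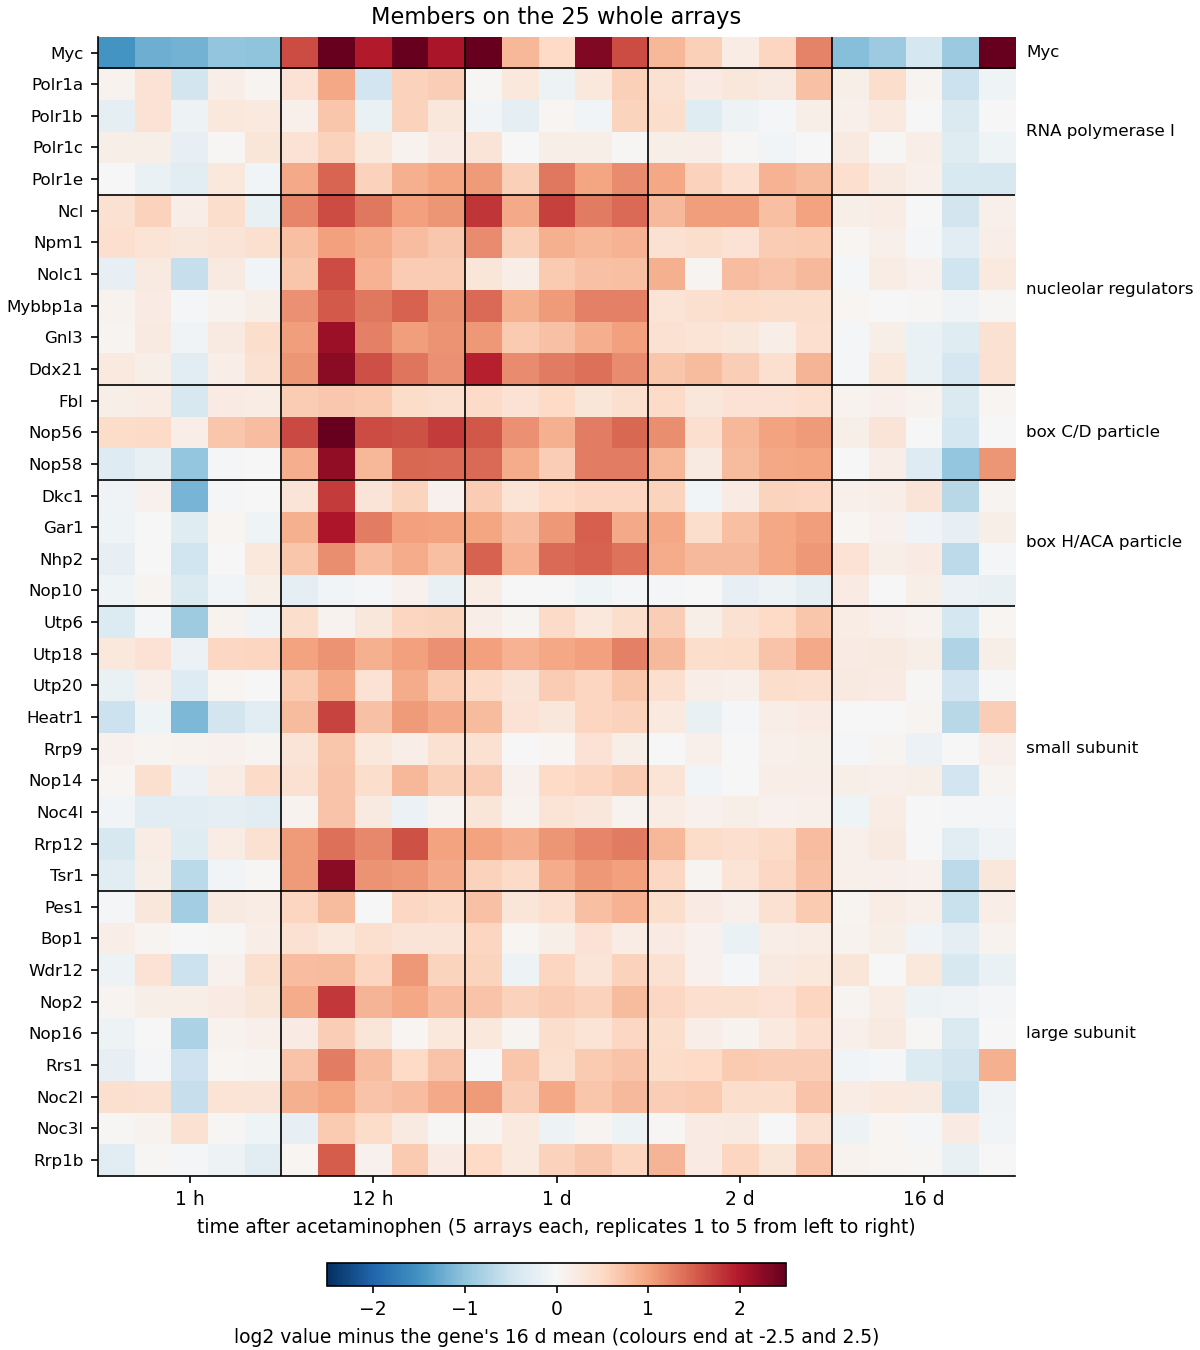
Log2 value of each of the 36 genes on the 25 whole arrays minus the gene's 16 d mean, with arrays as columns (replicates 1 to 5 from left to right in each group) and genes as lines of cells grouped by role. The 12 h and 1 d columns are mostly red, with 12 h replicate 2 the darkest. The 16 d replicate 5 column is dark red for Myc alone, and the 1 h replicate 3 and 16 d replicate 4 columns are bluer than their neighbours.

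**Figure D2:**
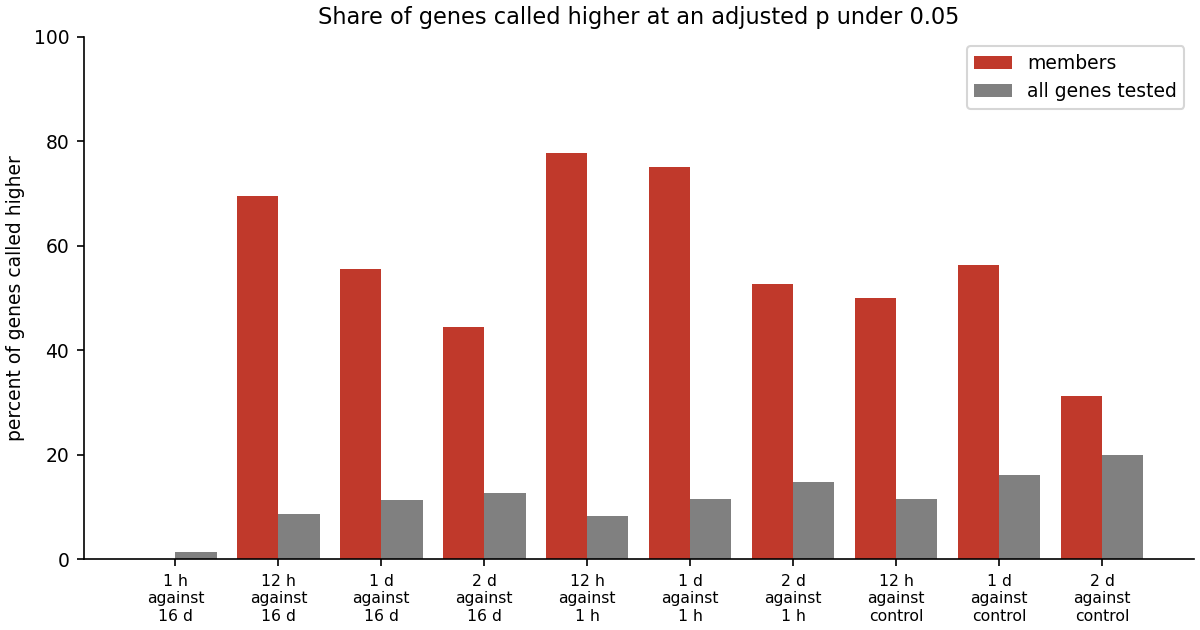
Percent of genes called higher in 10 comparisons, for the members (red, out of 36, or out of 16 against control) and for all genes tested (grey). Both bars of the 1 h comparison are near 0, and in every other pair the red bar is the taller. At 2 d the member counts depend on the scale: with arrays scaled to ribosomal protein genes, 4 members were higher and 6 lower than at 16 d. The ribosomal protein genes were themselves higher at 2 d, so this scale lowers every gene. On that scale 1044 of all 18194 genes were called higher and 11579 lower.

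The mean over arrays was highest at 12 h for 26 of the 36 genes, at 1 d for 8, and at 2 d for Utp6 and Rrp1b. Among all genes, 13.6% had their highest mean at 12 h, 13.3% at 1 d and 20.8% at 2 d. The lowest mean fell at 16 d for 19, at 1 h for 16 and at 2 d for Nop10. With probe sets averaged for each gene, the count at 12 h was 27, and with scaling to ribosomal protein genes it was 30. The size of the 12 h difference from 16 d ran from -0.09 for Nop10 to 2.31 for Myc.

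Myc differed most of the 36 genes from 1 h at 12 h, 1 d and 2 d, and from 16 d at 12 h and 1 d. Its log2 level was 5.93, 6.19, 6.24, 6.43 and 6.41 on the 1 h arrays and 9.05, 10.26, 9.41, 10.44 and 9.47 on the 12 h arrays. All 12 h arrays were above all 1 h arrays, and the means differed by 3.48 ± 0.58 (SE), an 11.2-fold difference (limma adjusted p 0.000147). At 1 d the arrays read 10.17, 8.25, 7.91, 9.74 and 9.06, a spread of values from the lower 2 d range to the upper 12 h range. At 2 d they read 8.25, 8.01, 7.61, 7.96 and 8.66, all still above every 1 h array. Against 1 h, Myc was 2.78 higher at 1 d (adjusted p 0.000951) and 1.86 higher at 2 d (adjusted p 0.0191, or 0.0511 without the 2 d replicate 5 array).

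The 16 d arrays read Myc at 6.36, 6.52, 6.98, 6.49 and 10.75. Of these 5 arrays 4 lay close to the 1 h level, and replicate 5 lay apart, so the 16 d mean of 7.42 ± 1.88 (SD, n = 5) became 6.59 ± 0.27 (SD, n = 4) without it. With all arrays, Myc was 2.31 higher at 12 h than at 16 d (adjusted p 0.0056) and 1.61 higher at 1 d (adjusted p 0.0481), while the 2 d difference was 0.68 (adjusted p 0.424). Without replicate 5 the differences were 3.14 at 12 h (adjusted p 8.66e-07), 2.44 at 1 d (adjusted p 1.89e-05) and 1.51 at 2 d (adjusted p 0.00309). The call at 1 d was lost without any one of 1 d replicates 1, 4 or 5 or 16 d replicates 1 to 4 (adjusted p 0.0781 to 0.134). It was also lost in a fit of the 1 d and 16 d arrays alone (adjusted p 0.18), and the call at 12 h in the matching fit (adjusted p 0.0559). Between 1 h and 16 d the Myc difference was -1.18 (adjusted p 0.445), and -0.34 without replicate 5.

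No other member stood as far above the next array on that array as Myc did. Of the 36 genes, 11 had their highest 16 d value on replicate 5, where 15.2% of all genes had theirs. Myc was the only member at least 1 above the next array. Over all genes, 157 were at least 1 above the next array on replicate 5, against 1, 6, 0 and 61 on replicates 1 to 4. Nop58 (9.36 on replicate 5, 7.30 to 8.44 on the others) and Rrs1 (9.20, against 7.86 to 8.29) came closest to such a gap.

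**Figure D3:**
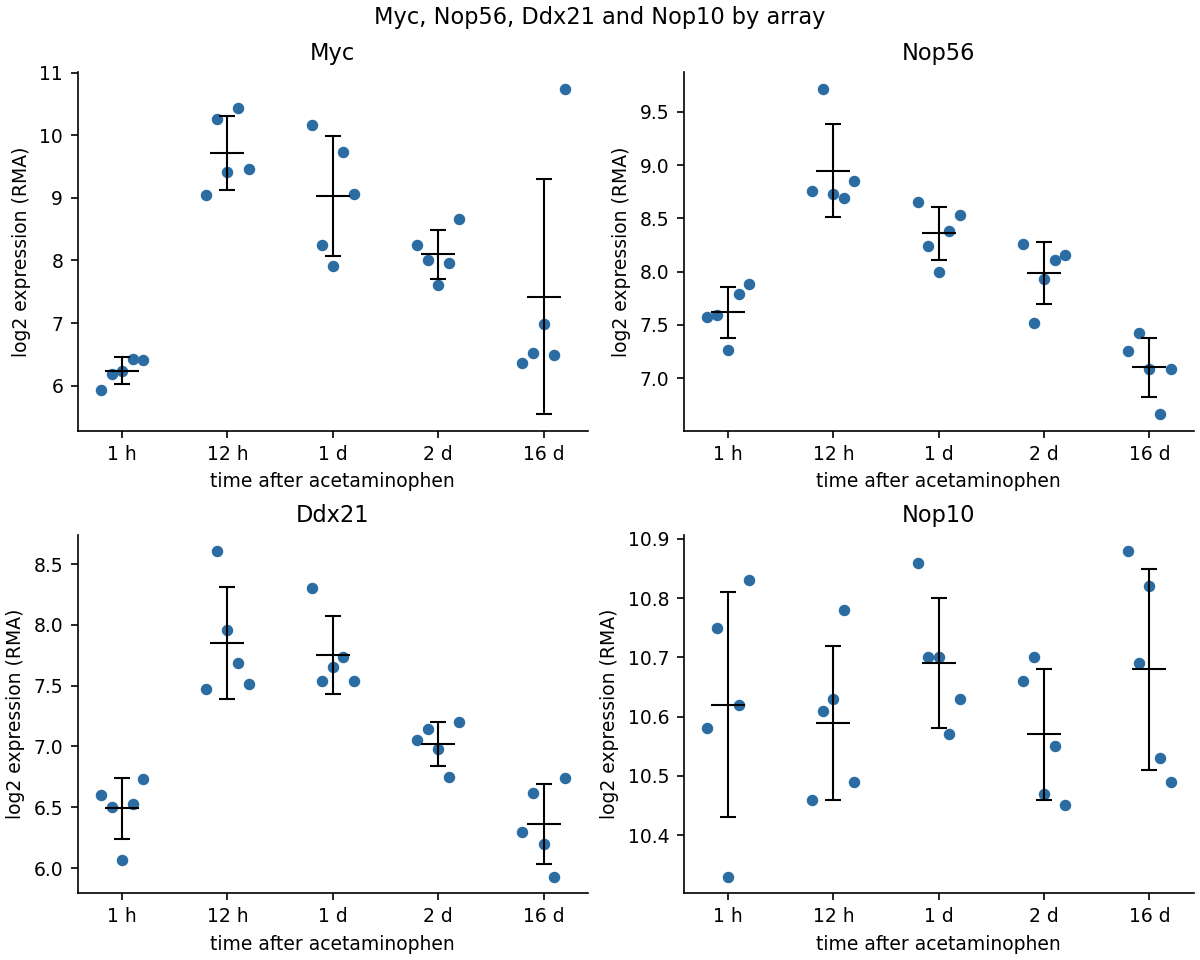
Log2 expression of Myc, Nop56, Ddx21 and Nop10 on each of the 25 whole arrays (points), with group mean and SD (bars), by time after acetaminophen. Myc, Nop56 and Ddx21 are highest at 12 h, and the single high Myc point at 16 d is replicate 5 at 10.75. The Nop10 groups overlap throughout, on an axis that spans under 1 log2 unit.

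Of the subunits of RNA polymerase I, 1 of 4 was called higher at 12 h than at 16 d. Polr1e, a subunit found only in this polymerase and needed to start on ribosomal DNA, read 6.63, 7.13, 6.25, 6.57 and 6.66 at 12 h and 6.11, 5.91, 5.80, 5.31 and 5.28 at 16 d. Every 12 h array was above every 16 d array, by 0.97 ± 0.17 (SE) in the means (adjusted p 0.000238). It was 1.03 higher at 1 d and 0.73 higher at 2 d, both called, and its 1 h mean of 5.63 and 16 d mean of 5.68 differed by -0.05, without a call. Polr1a, the largest catalytic subunit, read 6.86, 7.48, 6.03, 7.08 and 7.12 at 12 h and 6.66, 6.94, 6.57, 5.96 and 6.39 at 16 d. These groups overlapped, with a difference of 0.41 ± 0.21 (adjusted p 0.197). Without 12 h replicate 3 it was 0.63 (adjusted p 0.02), and with its probe sets averaged 0.31 (adjusted p 0.0112), both called. Polr1b, the partner of Polr1a in the catalytic core, and Polr1c, a subunit shared with RNA polymerase III, differed by 0.31 and 0.30 and were not called against 16 d.

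All 6 nucleolar regulators were called higher at 12 h than at 16 d, by 0.83 to 1.49, and all 6 were called higher than at 1 h. Ddx21, an RNA helicase that links transcription by RNA polymerase I with processing of its product, read 7.47, 8.61, 7.96, 7.69 and 7.51 at 12 h and 8.30, 7.54, 7.65, 7.74 and 7.54 at 1 d. Its 16 d arrays read 6.30, 6.62, 6.20, 5.93 and 6.74, below all of these, and the differences were 1.49 ± 0.19 at 12 h (adjusted p 5.16e-06) and 1.40 ± 0.19 at 1 d (adjusted p 9.3e-06). By 2 d Ddx21 stood 0.66 above 16 d (adjusted p 0.0158), a call lost when only unmarked probe sets were used (0.38, adjusted p 0.142).

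Mybbp1a, a nucleolar protein that regulates transcription by RNA polymerase I and RNA processing, varied little within these 5 groups (SD 0.04 to 0.20). Its SD was 0.26 in the controls, 0.34 at 6 h and 0.23 at 8 d. It read 9.23, 9.62, 9.42, 9.57 and 9.26 at 12 h, 9.51, 8.98, 9.17, 9.35 and 9.35 at 1 d and 8.44, 8.50, 8.56, 8.54 and 8.53 at 2 d. The 16 d arrays lay between 8.01 and 8.14 and the 1 h arrays between 8.07 and 8.31, so all arrays of 12 h, 1 d and 2 d lay above both. Against 16 d it was 1.33 ± 0.09 higher at 12 h (adjusted p 7.43e-10), 1.18 at 1 d and 0.42 at 2 d (0.02, not called, when scaled to ribosomal protein genes), and it fell by 0.76 from 1 d to 2 d (adjusted p 5.45e-06). On that scale the 2 d difference from 1 h was -0.09 in place of 0.32.

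Ncl (nucleolin, which binds nascent ribosomal RNA) was 1.26 higher at 12 h, 1.43 at 1 d and 0.93 at 2 d than at 16 d, all called. Npm1 (nucleophosmin, a nucleolar chaperone) was 0.83, 0.88 and 0.50 higher. Gnl3 (nucleostemin, a nucleolar GTP-binding protein) was 1.32 and 0.88 higher at 12 h and 1 d and did not pass at 2 d (0.32). Nolc1, a chaperone of the small nucleolar particles, was 0.89 higher at 12 h and 0.65 at 2 d, and did not pass at 1 d (0.52, adjusted p 0.0694). Ncl and Npm1 had their highest means at 1 d, the other 4 at 12 h.

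The 3 box C/D proteins, which carry the guide RNAs for ribose methylation, all rose at 12 h and at 1 d. Nop56, a core scaffold of the particle, had the largest 12 h rise against 16 d after Myc. It read 8.76, 9.72, 8.73, 8.69 and 8.85 at 12 h and 7.25, 7.42, 7.09, 6.66 and 7.09 at 16 d. All 12 h arrays were above all 16 d arrays, by 1.85 ± 0.19 (adjusted p 1.49e-07), and Nop56 was 1.26 and 0.89 higher at 1 d and 2 d. The Nop56 arrays of 1 h read 7.57, 7.59, 7.26, 7.79 and 7.88, mostly above those of 16 d. Against 1 h the Nop56 rise was 1.33 at 12 h and 0.74 at 1 d, both called, and 0.37 at 2 d (adjusted p 0.132). Nop58, its paralogue in the particle, was 1.37 higher at 12 h and 1.10 at 1 d. Fbl, the methyltransferase fibrillarin, moved less, by 0.56, 0.41 and 0.39 at the 3 times, and was called at each.

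The 4 box H/ACA proteins, which carry the guides for pseudouridine, split. Gar1, a core protein of the particle, read 7.85, 9.0, 8.25, 8.00 and 7.97 at 12 h and 7.02, 7.07, 6.89, 6.76 and 7.11 at 16 d. Every 12 h array of Gar1 was above every 16 d array, with a difference of 1.24 ± 0.17 (adjusted p 9.85e-06), 1.06 at 1 d and 0.83 at 2 d. Nhp2, which binds the guide RNA in the same core, read 9.23, 9.69, 9.30, 9.45 and 9.29 at 12 h and 10.00, 9.40, 9.95, 10.00 and 9.88 at 1 d, against 8.89, 8.67, 8.74, 7.87 and 8.49 at 16 d. It was the member that stood higher at 1 d than at 12 h by the widest margin, 1.31 ± 0.16 against 0.86 ± 0.16 above 16 d, and the difference between 1 d and 12 h (0.45) was not called. It was called after quantile normalization (0.47, adjusted p 0.0284) and without the arrays of narrow spread (0.45, adjusted p 0.0326).

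Dkc1, the pseudouridine synthase of the same particle, was 0.62 higher at 12 h than at 16 d (adjusted p 0.0991) and 0.85 higher than at 1 h (adjusted p 0.0221). Nop10, its smallest subunit, read 10.46, 10.61, 10.63, 10.78 and 10.49 at 12 h and 10.88, 10.69, 10.82, 10.53 and 10.49 at 16 d. The Nop10 arrays of all 5 groups overlapped, and its 12 h difference was -0.09 ± 0.10 (adjusted p 0.612).

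Of the 9 small-subunit factors, 7 rose at 12 h against 16 d and all 9 against 1 h. Tsr1, a late factor of the small subunit in the cytoplasm, read 8.35, 9.54, 8.40, 8.37 and 8.23 at 12 h and 7.42, 7.41, 7.40, 6.62 and 7.57 at 16 d. No arrays overlapped, replicate 2 stood out at 12 h and replicate 4 at 16 d, and the difference was 1.29 ± 0.22 (adjusted p 0.000136). Rrp12, which takes part in export of pre-ribosomal particles, read 6.31, 6.61, 6.44, 6.83 and 6.25 at 12 h and 5.37, 5.46, 5.24, 4.97 and 5.14 at 16 d. Its arrays were also fully apart, by 1.25 ± 0.14 (adjusted p 1.11e-06), and the difference was 1.11 at 1 d and 0.59 at 2 d.

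Among the factors of the small-subunit processome, the large particle on the nascent transcript, Utp18 was 1.04 higher at 12 h, 1.03 at 1 d and 0.67 at 2 d. Heatr1 was 1.04 higher at 12 h and did not pass later (0.50 and 0.08). Utp20 (0.71), Nop14 (0.59) and Rrp9 (0.36), a protein of the U3 particle, were called at 12 h. Noc4l (0.19) did not pass against 16 d and was 0.41 higher than at 1 h (adjusted p 0.00906). Utp6 was the member whose probe sets differed most. Its brightest probe set gave 0.38 at 12 h against 16 d, another gave -0.33, and the third gave -0.66, which was called lower in the fit over single probe sets (adjusted p 0.0324). In that fit 40 of the 76 probe sets were called higher at 12 h and that 1 lower. Of the 26 genes with several probe sets, 9 had all of them higher, 9 some and 8 none called higher.

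Of the 9 large-subunit factors, 5 rose at 12 h against 16 d. Nop2, a methyltransferase of the large ribosomal RNA, read 8.02, 8.87, 7.96, 8.06 and 7.88 at 12 h and 7.17, 7.29, 6.98, 7.02 and 7.05 at 16 d. Its arrays were fully apart, by 1.06 ± 0.13 (adjusted p 1.95e-06), and the difference was 0.66 at 1 d and 0.44 at 2 d. Scaled to ribosomal protein genes, Nop2 was 0.23 higher at 1 d (adjusted p 0.13) and 0.04 at 2 d (adjusted p 0.807), and the 2 d call was also lost after quantile normalization (0.29, adjusted p 0.184) or centring on the median of all genes (0.34, adjusted p 0.0643). Noc2l, related to a yeast factor of pre-ribosome transport, read 6.86, 6.95, 6.68, 6.73 and 6.90 at 12 h and 6.14, 6.21, 6.19, 5.40 and 5.87 at 16 d. These were also apart, by 0.86 ± 0.16 (adjusted p 0.00046), with 0.83 at 1 d and 0.58 at 2 d.

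Pes1, Bop1 and Wdr12 form 1 complex, and they did not pass together. Wdr12 was 0.75 higher at 12 h (adjusted p 0.00303) and Bop1 0.34 higher (adjusted p 0.0139), while Pes1 was called at 1 d (0.61, adjusted p 0.0219) and not at 12 h (0.47, adjusted p 0.0902). Whether these 3 differ from each other was not tested. Against control, Bop1 was 0.18 higher at 12 h, without a call (limma adjusted p 0.23). Rrs1, which loads a ribosomal RNA and its proteins into the large subunit, was 0.80 higher at 12 h and 0.57 at 2 d than at 16 d. Its mean was 8.93 on the control arrays, 9.11 at 12 h and 8.88 at 2 d, and neither time was called against control. Nop16 (0.29), Noc3l (0.23) and Rrp1b (0.51) did not pass at 12 h against 16 d, and Rrp1b was 0.64 higher than at 1 h (adjusted p 0.0204).

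**Figure D4:**
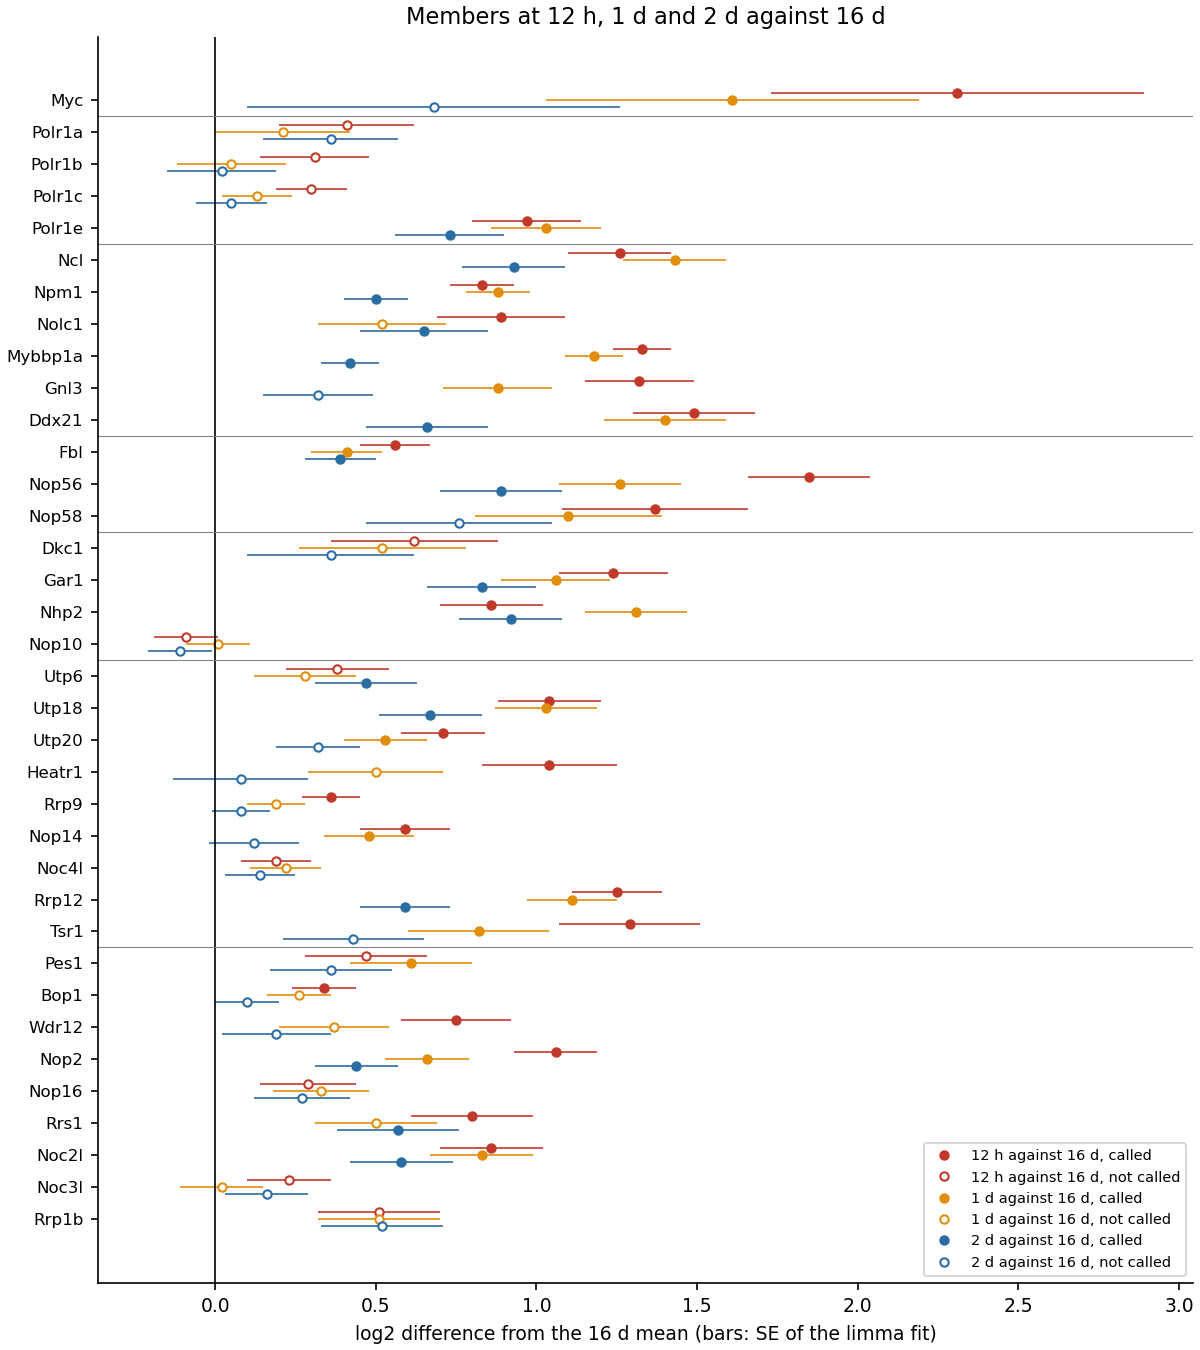
Difference in log2 expression from the 16 d mean at 12 h (red), 1 d (orange) and 2 d (blue) for each of the 36 genes, with SE of the limma fit as bars and filled points for calls at an adjusted p under 0.05. Nearly all points lie right of 0, and Myc has the widest bars. The blue points move left on another scale: with arrays scaled to ribosomal protein genes, 4 members were higher and 6 lower at 2 d. Those scaling genes were themselves higher at 2 d, so every gene moves left. On that scale 1044 of all 18194 genes were called higher and 11579 lower.

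The promoters of the members were read for the E-box, CACGTG, which is the same on both strands, because Myc and many of these genes moved together. RefSeq promoters of the GRCm38.p6 build, from 250 bases before to 50 after the gene start, matched 29 of the 36 genes. The E-box lay in 6 of the 29 (20.7%), against 8.09% of 27025 genes with a promoter in the same table. In the 250 upstream bases alone it lay in 2 of 29 (6.9%), against 6.86%. Of the 29, 19 were called higher at 12 h against 16 d and 5 of these 19 held the E-box, as did 1 of the 10 not called, Pes1. The related word CACGCG, searched on both strands as CACGCG and CGCGTG and able to share bases with an E-box, lay in 10 of 29 (34.5%) against 10.5% of genes, and in the upstream bases in 4 (13.8%) against 8.65%. These are matches of letters, not measured binding.

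The 6 E-boxes are shown in capitals within 30 bases each, 5′ to 3′ on the strand of the gene, to show how their flanks and distances from the start differ. Nop2 lies at chr6:125131811-125131840 on the plus strand with the E-box beginning 60 bases before the start, and Utp18 at chr11:93885769-93885798 on the minus strand with 20 bases before the start. The other 4 begin after the start, at 2 bases for Pes1 (chr11:3963965-3963994, plus), 24 for Tsr1 (chr11:74898092-74898121, plus), 37 for Utp20 (chr10:88826765-88826794, minus) and 40 for Mybbp1a (chr11:72441347-72441376, plus).
Nop2: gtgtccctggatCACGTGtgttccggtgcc
Utp18: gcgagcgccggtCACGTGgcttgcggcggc
Pes1: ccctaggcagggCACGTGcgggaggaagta
Tsr1: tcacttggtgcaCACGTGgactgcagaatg
Utp20: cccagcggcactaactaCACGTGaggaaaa
Mybbp1a: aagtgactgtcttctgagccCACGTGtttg

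The 150 bases just upstream of the start are given for both members with an upstream E-box and, for contrast, for Nop56, which moved most at 12 h against 16 d after Myc, and Nop10, which was not called, neither of which holds one. Capitals again mark CACGTG. Nop56 (chromosome 2, plus strand) was 1.85 higher at 12 h without an E-box in its window, Nop2 was 1.06 and Utp18 1.04 higher with one, and Nop10 (chromosome 2, plus strand) differed by -0.09 without one.
Nop2: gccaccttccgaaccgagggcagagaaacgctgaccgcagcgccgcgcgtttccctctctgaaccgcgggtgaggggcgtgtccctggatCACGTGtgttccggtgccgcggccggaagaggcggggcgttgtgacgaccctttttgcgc
Utp18: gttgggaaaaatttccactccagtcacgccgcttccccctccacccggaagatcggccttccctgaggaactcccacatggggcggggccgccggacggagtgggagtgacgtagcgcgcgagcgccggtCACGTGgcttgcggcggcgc
Nop56: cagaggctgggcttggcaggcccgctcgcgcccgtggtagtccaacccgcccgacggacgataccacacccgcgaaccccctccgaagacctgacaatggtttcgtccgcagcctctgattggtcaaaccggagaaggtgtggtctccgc
Nop10: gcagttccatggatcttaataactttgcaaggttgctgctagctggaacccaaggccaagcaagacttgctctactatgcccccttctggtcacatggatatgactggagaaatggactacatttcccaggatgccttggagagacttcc

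Against untreated livers, the 16 members measured on all arrays had their highest counts at 12 h and 1 d. The mean was highest at 12 h for 10 of them, at 1 d for 5 and at 8 d for Nop10. None was called at 1 h by limma (0.335% of all genes were called higher and 0.301% lower), with 2 lower at an unadjusted p under 0.05. None was called at 6 h (3.78% of all genes were called higher and 1.89% lower), with 1 higher and 1 lower unadjusted. At 12 h, 8 of 16 were called higher (11.5% of 5976 genes), at 1 d 9 (16.2%) and at 2 d 5 (19.9%), and none was called lower at these times, where 12.2%, 13.4% and 12.7% of all genes were. The member medians were 0.37, 0.37 and 0.17, against -0.05, -0.03 and -0.03 for all genes. Scaling to ribosomal protein genes, whose own level was higher at these times, moved the median of all genes by -0.16, -0.44 and -0.40. The member counts were then 7 higher and 1 lower at 12 h, 4 and 6 at 1 d, and 2 and 7 at 2 d. Of the 5976 genes, 485, 373 and 586 were higher on that scale and 1708, 3971 and 3585 lower. Centred on the median of all genes, the 2 d count was 2 higher and 3 lower, where 757 of the 5976 genes were higher and 2739 lower. After quantile normalization it was 3 and 2, where 1006 and 1461 genes were. A moderated F test over the 10 groups called 14 of the 16, where 54.5% of all genes were called, and Polr1b and Wdr12 did not pass. In all comparisons with control, Polr1a, Polr1c, Polr1e and Wdr12 stood by another probe set than in the 5 groups. For Wdr12 the group means were 3.85 to 4.37 on that set, and 6.71 to 7.46 in the 5 groups. Results of these genes against control and against 16 d or 1 h are therefore not the same measure.

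Gar1 read 7.03, 7.10, 6.08, 7.49 and 7.28 on the control arrays and, as above, 7.85 to 9.0 at 12 h. The 12 h, 1 d and 2 d arrays were above the control mean of 7.0 throughout, by 1.22 (adjusted p 4.14e-06), 1.03 (adjusted p 3.95e-05) and 0.80 (adjusted p 0.000879) in the means. Control replicate 3, an array of narrow spread, lowered that mean with its 6.08. The 2 d arrays overlapped the controls, with the lowest at 7.40 and the highest control at 7.49. At 6 h replicate 1 read 8.00 and the other 3 arrays 7.09 to 7.18. From 4 d to 16 d the Gar1 means lay between 6.96 and 7.02.

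Nhp2 read 8.76, 8.89, 7.94, 8.91 and 8.96 on the control arrays, with replicate 3, an array of narrow spread, apart. It was 0.70 higher at 12 h, 1.15 higher at 1 d (adjusted p 2.08e-07) and 0.76 higher at 2 d, all called. Ncl read 10.11, 9.78, 9.77, 10.19 and 10.01 on the control arrays and 10.54, 10.34, 10.34 and 10.46 at 6 h. The Ncl arrays of 6 h all lay above the controls, by 0.45 in the means, without a call, and the differences were 0.88 at 12 h (adjusted p 7.79e-06), 1.05 at 1 d (adjusted p 1.69e-07) and 0.55 at 2 d (adjusted p 0.00249).

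Mybbp1a read 8.25, 8.46, 8.01, 8.65 and 8.55 on the control arrays. It was 1.04 higher at 12 h (adjusted p 1.8e-09) and 0.89 higher at 1 d (adjusted p 3.61e-08), and its 2 d arrays, at 8.44 to 8.56, fell within the control range (0.13, adjusted p 0.383). Scaled to ribosomal protein genes, the 2 d difference of Mybbp1a was -0.26 (adjusted p 0.0362). At 2 d Mybbp1a thus lay within the control range while Gar1, Nhp2 and Ncl were called higher, and the difference between these genes was not tested. The 2 d call of Ncl was lost when arrays were centred on the median of all genes (0.28, adjusted p 0.0974) or on ribosomal protein genes (0.15, adjusted p 0.31).

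Polr1e (0.96), Npm1 (0.51), Fbl (0.51) and Polr1c (0.36) were the other members called higher than control at 12 h. At 1 d Pes1 (0.52) and Noc4l (0.37) were called and Polr1c was not. At 2 d Polr1e (0.62) and Fbl (0.34) were called beside Gar1, Nhp2 and Ncl, and Polr1e did not pass under any of the 3 other scalings (0.22 to 0.46). Without control replicate 3, 2 d replicate 1 or 2 d replicate 5 the 2 d count was 3.

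The later groups held a small number of calls below control. Nop10 was 0.44 lower at 4 d (6.54% of all genes were called lower and 9.99% higher), none was called at 6 d by limma (2.64% called lower and 5.89% higher, and 1 member lower at an unadjusted p under 0.05), and Npm1, Ncl and Rrs1 were lower at 8 d (2.81% called lower, 5.19% higher). These 3 differed by -0.31, -0.44 and -0.69. At 16 d Npm1 was called lower, by -0.32 (3.35% of all genes lower, 3.31% higher). All of these are named after their values were seen. Npm1 read 10.59, 10.56, 10.40, 10.54 and 10.50 on the control arrays and 10.25, 10.31, 10.15, 9.90 and 10.35 at 16 d. Every 16 d array of Npm1 was below every control array, as were its 4 d, 6 d and 8 d arrays. The counts at these times rest on single arrays: the 4 d count was 0 without control replicate 2 and 2 without control replicate 3 or 4 d replicate 3. The 8 d count was 1 without control replicates 1, 4 or 5 or 8 d replicate 2. The 16 d count was 0 without control replicate 1 or 16 d replicate 4, 2 without 16 d replicate 5 and 3 without control replicate 3.

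**Figure D5:**
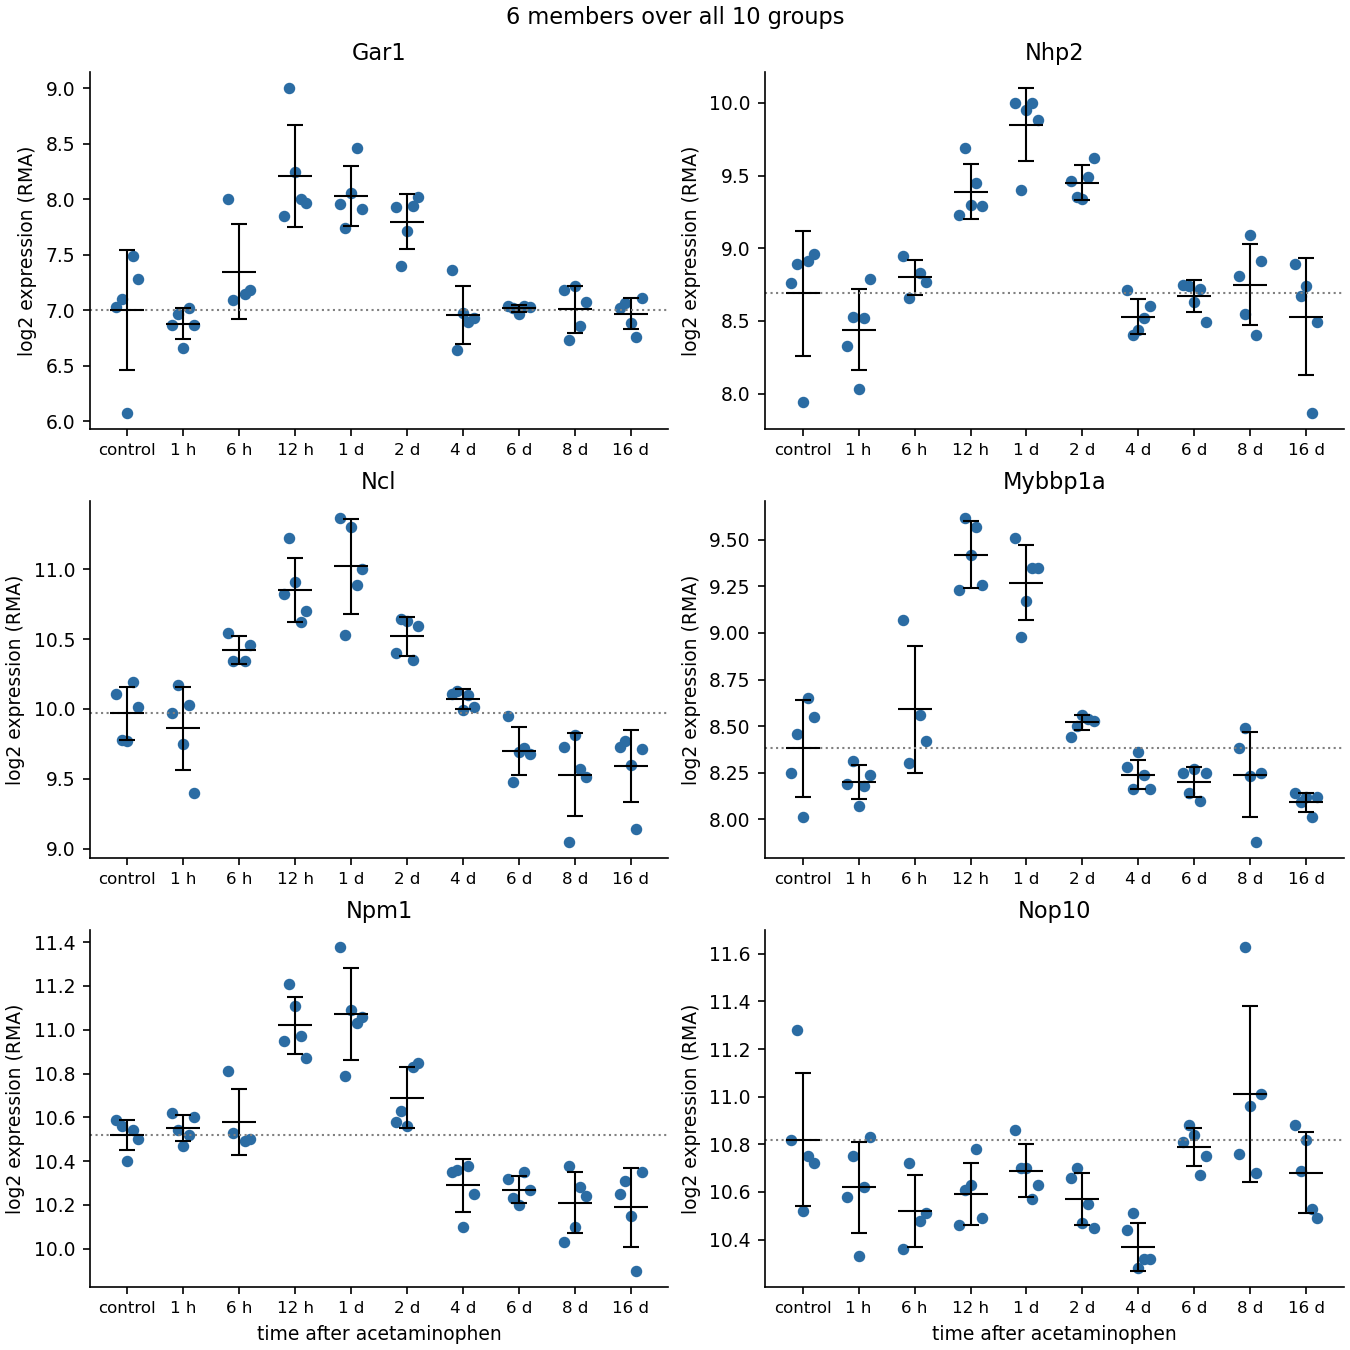
Log2 expression of Gar1, Nhp2, Ncl, Mybbp1a, Npm1 and Nop10 on each array of the 10 groups (points) with group mean and SD (bars), by time after acetaminophen, and the control mean as a dotted line. The first 5 are highest at 12 h or 1 d. Mybbp1a is back at the dotted line at 2 d, Npm1 lies under it from 4 d on, and Nop10 is not called at 12 h.

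The wider ribosome assembly list was called higher more often than all genes at 12 h and 1 d, and not at 2 d. Of 119 other assembly factors measured of 123 listed, 51 were called higher and 2 lower at 12 h against 16 d, with a median of 0.39 (8.60% of all genes were called higher and 10.6% lower). At 1 d 45 were higher and 0 lower, with a median of 0.33 (11.3% and 10.4% of all genes). At 2 d 13 were higher and 2 lower, where 12.7% of all genes were higher and 8.54% lower. The largest at 12 h were Taf1d, a subunit of the RNA polymerase I initiation complex (2.00), Eif6, which keeps the large subunit apart from the small one (1.49), and Zfp593 (1.22), and the lower ones were Rcl1 (-0.59) and Ttf1 (-0.43), a terminator of RNA polymerase I. Taf1d and Zfp593 stood by probe sets whose names end in _x_at, which marks possible cross-hybridisation.

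Of the dimerization partners and relatives of Myc, 1 was called higher at 12 h against 16 d, a share near that of all genes. Of 12 in the Myc network list, Mnt, a Max partner that opposes Myc, was that gene (0.53), and 3 were lower, where 8.60% of all genes were higher and 10.6% lower. Among these were Mlxipl (-1.56), the glucose-responsive factor of hepatocytes, and Mycl (-0.75). Of 20 other genes described as Myc targets, 10 were higher and 2 lower at 12 h and 14 and 2 at 1 d (11.3% and 10.4% of all genes at 1 d). Srm (1.65), which makes spermidine, Tfrc (1.45), the transferrin receptor, and Eif4e (1.39), the cap-binding initiation factor, led the rise, and Shmt1 (-0.77) and Shmt2 (-0.63) were lower.

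The protein components of the ribosome and the replication genes had their highest counts at 1 d and 2 d. Of 42 cytosolic ribosomal protein genes measured of 73 listed, 21 were called higher at 12 h, 35 at 1 d and 34 at 2 d against 16 d, none lower, with medians of 0.22, 0.43 and 0.37. Of all genes, 8.60%, 11.3% and 12.7% were called higher at these times. Of 16 DNA replication genes 2 were called higher at 12 h, 2 at 1 d and all 16 at 2 d, with medians of 0.09, 0.23 and 1.91, so that the 12 h and 1 d counts were near the shares of all genes. Of 5 genes of the p53 response to nucleolar stress, 2 were higher at 12 h, Cdkn1a (2.51) and Mdm2 (1.27), and 4 at 2 d. Differences in timing between these lists were not tested.

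Cell types could be followed only through their marker genes, and in bulk tissue fewer cells of a type and less RNA per cell cannot be told apart. The hepatocyte markers were present on every array, with a summed log2 level of 16.23 to 16.37 at 12 h and 16.37 to 16.41 at 16 d. At 1 h the sum was 16.44 to 16.49, above every 12 h array. Against 16 d, 0 of 7 were called at 12 h by limma, with 1 lower at an unadjusted p under 0.05. Of 6 neutrophil markers 2 were called higher at 12 h, with sums of 8.62 to 12.43 against 8.12 to 10.02 at 16 d. These counts stand beside 8.60%, 11.3% and 12.7% of all genes called higher than at 16 d at 12 h, 1 d and 2 d, and 10.6%, 10.4% and 8.54% called lower. Of 12 monocyte and macrophage markers 3 were higher at 12 h, 5 at 1 d and 9 at 2 d. Of 9 stellate cell and myofibroblast markers 1 was higher and 1 lower at 12 h, and 7 were higher at 2 d, when their sums were 12.32 to 12.97 against 9.98 to 10.61 at 16 d. Of 7 endothelial markers 1 was higher and 2 lower at 12 h, and their sums overlapped (10.47 to 11.14 against 10.07 to 10.95 at 16 d). Of 5 bile duct markers 1 was higher, and their sums were 7.53 to 8.10 at 12 h, 6.72 to 6.91 at 1 h and 6.89 to 8.10 at 16 d. Of 7 lymphocyte markers 0 were called at 12 h by limma, with 0 at an unadjusted p under 0.05, and 2 were lower at 2 d. Of 2 erythroid markers measured, Alas2, which starts heme synthesis in red cell precursors, was lower at 12 h (-1.39), and the sums were 7.72 to 9.02 at 12 h against 9.29 to 9.76 at 16 d, without overlap. The scale has no true 0, so no marker can be called absent. The 12 h replicates 1 and 5 had neutrophil sums of 8.62 and 9.22, within the 16 d range, and on them the median member stood 0.70 and 0.66 above its 16 d mean. The part of any of these cell types, neutrophils included, in the member differences was not tested.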

How the data were processed

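RNA of 49 liver samples in 10 groups was measured on Affymetrix arrays, and groups were taken from the sample labels. The deposited log2 values were made by the authors with the oligo package (version 1.52.0) and RMA, per the submitters' processing notes, which corrects background, normalizes across arrays and sums the probes of a set. Probe sets were named by the platform annotation of 2016: of 45101, 34958 had 1 gene symbol, 932 several and 9211 were not listed. A gene stood by its brightest single-symbol probe set. Of the 36, 11 stood by a marked set, whose name ends in _a_at, _s_at or _x_at. Of these, 5 end in _s_at or _x_at, the names that mark possible cross-hybridisation, with Gar1 and Nhp2 among them. Group means were fitted with limma 3.58.1 in R 4.3.3 (lmFit, eBayes) over all groups of a table, 18194 genes on 25 arrays and 5976 genes on 49, and p-values were adjusted by Benjamini-Hochberg over all genes of a comparison. A call is an adjusted p under 0.05. The script was tested on simulated data. Scan batches are not given in the sources used here.

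The members and all gene lists were chosen with earlier results of these data known. Values in every array are given for Myc and, per role, for the 2 members (1 in a role of 3) that differed most between 12 h and 16 d, and for the 4 that differed most from control; Nop10 and Npm1 were added after their values were seen. Alternatives were another probe set rule, a filter on dim genes, other spread models, array weights, 3 other scalings, fits of 2 groups, the replicate number as a block and leaving out arrays. Promoters came from RefSeq (GRCm38.p6). No 2 arrays held identical values.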

Additional observations from a re-analysis of the deposited data

Results flagged for a closer look

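Of 85 groups of arrays tested for the named genes, 12 held an array far from the others of its group, where chance gives about 1 in 20. Myc read 10.75 on 16 d replicate 5, and the next array 6.98. The 12 h replicate 2 array was high for Nop56 (9.72, next 8.85), Tsr1 (9.54, next 8.40) and Nop2 (8.87, next 8.06). Ddx21 was high on 1 d replicate 1 (8.30, next 7.74), and Nhp2 low on 1 d replicate 2 (9.40, next 9.88). Of the arrays with a narrow spread of values, 16 d replicate 4 was low for Tsr1 (6.62, next 7.40) and Ncl (9.14, next 9.60), 1 h replicate 3 was low for Noc2l (5.39, next 6.28), and control replicate 3 was low for Nhp2 (7.94, next 8.76). Gar1 was high on 6 h replicate 1 (8.00, next 7.18), and low on 6 d replicate 3 (6.97, next 7.02), where the 5 arrays differed little.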

How the results depend on the processing

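The count of members higher at 12 h was within 1.5 times its value under every alternative run, against 16 d, 1 h and control. Counts that moved further were these. With unmarked probe sets only, 2 were lower from 1 d to 2 d, 1 lower at 8 d and 0 at 16 d against control. With trend and robust estimation 1 was higher at 1 h than at 16 d, and with array weights or quantile normalization 2. With array weights 2 were also lower at 1 h than at 16 d, and 2, 1, 1, 6, 3 and 4 were lower than control at 1 h, 6 h, 2 d, 4 d, 6 d and 16 d. After quantile normalization 12 were higher at 2 d than at 1 h, 1 higher and 2 lower from 12 h to 1 d, and 11 lower from 1 d to 2 d; against control 3 were higher at 2 d, and 1, 2, 3, 1 and 2 lower at 1 h, 2 d, 4 d, 6 d and 16 d. Centred on the median of all genes, 11 were higher at 2 d than at 1 h and 8 lower from 1 d to 2 d; against control 2 were higher at 2 d, and 3, 4, 1 and 2 lower at 2 d, 4 d, 6 d and 16 d. Scaled to ribosomal protein genes, 13 and 4 were higher at 1 d and 2 d than at 16 d, 11 and 6 than at 1 h, and 4 and 2 than control, and 8 were lower from 12 h to 1 d; at 12 h, 1 d and 2 d, 1, 4 and 6 were lower than at 16 d, and 1, 6 and 7 than at 1 h and than control. On that scale Mybbp1a turned to -0.09 at 2 d against 1 h and -0.26 against control, and Polr1a to -0.35 and -0.32 at 1 d and 2 d against control. In fits of 2 groups, 3 were higher than control at 2 d, 1 lower at 8 d and 0 at 16 d. Without dim genes 2 were lower than control at 16 d. Without the 3 arrays of narrow spread 1 was higher from 12 h to 1 d and 9 lower from 1 d to 2 d; against control 3 were higher at 2 d, and 1, 5, 1 and 0 lower at 2 d, 4 d, 6 d and 16 d. Counts over all genes moved with the setting too. Against control at 2 d, 759 of 5976 genes were lower in the main fit. That count was 1461 after quantile normalization, 2739 centred on the median of all genes and 3585 scaled to ribosomal protein genes. The last scale subtracts the level of genes that were themselves higher at 2 d, which moved the median of all genes by -0.40. The causes of the other changes were not tested. Upstream bases alone gave 2 members with CACGTG and 4 with CACGCG. In all 10 groups, 7 members in place of 10 were highest at 12 h when scaled to ribosomal protein genes.

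Leaving out each array in turn gave 25 to 28, 18 to 24 and 11 to 18 members higher at 12 h, 1 d and 2 d than at 16 d, and 24 to 29, 21 to 27 and 12 to 19 than at 1 h. From 1 d to 2 d 2 to 7 were lower. Against control 7 to 9, 6 to 9 and 3 to 5 were higher at 12 h, 1 d and 2 d, 0 to 1 lower at 1 h and at 2 d, 0 to 2 at 4 d, 1 to 3 at 8 d and 0 to 3 at 16 d. The F tests called 28 to 31 of 36 and 10 to 15 of 16. The other counts were 0 throughout.

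Arrays share replicate numbers across groups, and the labels do not say that a number pairs them. Correlations of the deviations of same-numbered arrays ran from -0.57 to 0.62 over 50 pairs of the 25 arrays, with 27 over 0.1 and a median of 0.12, and from -0.53 to 0.82 over 216 pairs of the 49, with 83 over 0.1 and a median of 0.06. For differently numbered arrays the medians were 0.00 and -0.01. Since not every pair exceeded 0.1, the numbers were not taken as pairs in the main fits. That rule cannot exclude that some arrays of the same number share a deviation. With the replicate number as a block, 26, 22 and 17 members were higher at 12 h, 1 d and 2 d than at 16 d, 28, 27 and 18 than at 1 h, and 8, 9 and 5 than control.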
